A study of Mus musculus with 2 samples.

Results

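The lysosome is the acidic compartment in which cells break down proteins, glycans and lipids. Its soluble hydrolases are carried there from the Golgi, mostly by a mannose 6-phosphate tag, its membrane is lined with heavily glycosylated proteins, and a vacuolar proton pump (V-ATPase) keeps its interior acidic. In liver, lysosomes of hepatocytes and of resident macrophages also release cholesterol from lipoproteins and take part in the breakdown of lipid droplets, and the transcription factor TFEB switches on many of these genes through an E-box known as the CLEAR element. The genes described here are 34 lysosomal genes, of 24421 genes with counts, chosen by symbol from a fixed list of hydrolases, membrane proteins, pump subunits and Tfeb, and all 34 were found. They comprised 11 cathepsins and other proteases, 10 glycosidases with 1 sulfatase among them, 4 genes of lipid handling and hydrolase cofactors, 4 membrane proteins, 4 V-ATPase subunits and Tfeb.

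RNA-seq libraries were made from total RNA of livers of male C57BL/6 mice that were put on a high-fat diet at 6 weeks of age and kept on it for 12 weeks. The library labelled LKO came from liver of RORalpha f/f:Alb-Cre mice, in which Cre driven by the albumin promoter is meant to remove the floxed part of Rora, a nuclear receptor gene, from hepatocytes and not from macrophages, stellate or endothelial cells. The control library came from RORalpha f/f liver, with the same floxed alleles and diet and no Cre. Each genotype had 1 library, and the labels do not say whether it held 1 animal or a pool, so nothing below is checked by a replicate. Every ratio is of the library labelled LKO over the control library, and intervals (95%, exact) hold counting error alone, since reads without molecular identifiers are not independent molecules.

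Counts summed to 131843686 in the library labelled LKO and 128201591 in the control library. Major urinary protein genes took 9.08% of the counts in the library labelled LKO and 23.0% in the control library. Levels are therefore given as CPM, counts relative to a library total adjusted with the TMM method (trimmed mean of M-values). With total-count scaling instead, every log2 ratio would be 0.42 higher, so that a log2 ratio between −0.42 and 0 would turn positive. A gene was measured at a mean of at least 1 CPM and at least 20 summed counts, which 11137 genes met. Rora had 3677 counts in the library labelled LKO and 3701 in the control library, a log2 ratio of −0.47, so its total was not lost and the genotype is named only as labelled. The liver label was met by its markers, with Alb at 91007 and 117952 CPM in the library labelled LKO and the control library.

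The start regions of 4 of these genes are shown first, because the CLEAR element is the sequence that the lysosomal genes are best known to share. RefSeq (GRCm38.p6, the assembly of mm10) gave 1 or more windows, from 250 bases before to 50 bases after a start, for 29 of the 34 genes and none for Ctsb, Ctsh, Npc1, Atp6v0d2 and Atp6v1h. Capitals mark the E-box CACGTG together with a T before it, or an A after it, which is the same T on the other strand (TCACGTG, the inner letters of the CLEAR element). Ctsa and Gaa had the largest ratios among the genes whose windows held the motif, Lamp1 held the most copies, and Lgmn had the lowest ratio among them. The windows lie on mm10 at chr2:164833523-164833822 (plus strand), chr11:119267713-119268012 (plus strand), chr8:13158911-13159210 (plus strand) and chr12:102439043-102439342 (minus strand), and each is written 5′ to 3′ on the strand of its gene.
Ctsa: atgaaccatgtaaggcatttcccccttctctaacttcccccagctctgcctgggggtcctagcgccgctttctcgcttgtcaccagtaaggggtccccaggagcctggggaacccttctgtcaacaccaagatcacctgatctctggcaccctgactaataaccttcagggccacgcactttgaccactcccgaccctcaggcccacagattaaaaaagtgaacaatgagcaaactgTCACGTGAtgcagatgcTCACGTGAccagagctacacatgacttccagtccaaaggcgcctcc
Gaa: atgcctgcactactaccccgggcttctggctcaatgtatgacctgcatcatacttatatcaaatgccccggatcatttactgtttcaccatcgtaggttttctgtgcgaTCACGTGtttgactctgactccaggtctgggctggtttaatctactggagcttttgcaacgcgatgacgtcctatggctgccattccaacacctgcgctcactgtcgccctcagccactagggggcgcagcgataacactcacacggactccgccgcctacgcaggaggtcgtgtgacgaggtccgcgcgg
Lamp1: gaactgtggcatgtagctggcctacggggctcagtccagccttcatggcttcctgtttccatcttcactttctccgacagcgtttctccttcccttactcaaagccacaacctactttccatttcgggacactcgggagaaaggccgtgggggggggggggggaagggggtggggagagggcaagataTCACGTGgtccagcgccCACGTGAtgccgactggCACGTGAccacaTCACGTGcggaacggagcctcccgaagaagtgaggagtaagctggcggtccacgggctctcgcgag
Lgmn: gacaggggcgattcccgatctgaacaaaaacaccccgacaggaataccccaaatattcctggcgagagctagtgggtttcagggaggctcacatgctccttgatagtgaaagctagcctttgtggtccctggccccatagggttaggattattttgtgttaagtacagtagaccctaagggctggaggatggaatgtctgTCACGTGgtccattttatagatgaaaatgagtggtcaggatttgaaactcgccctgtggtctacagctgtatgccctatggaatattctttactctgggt

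TCACGTG, searched on both strands, stood in at least 1 window of 12 of the 29 lysosomal genes, or 41.4%. Among the 8384 measured genes with a RefSeq window the share was 7.32%, and among all 27025 genes with one it was 4.29%. Among the 107 genes of 6 other lysosomal lists that have a window, measured or not, it was 16.8%, from 0 of 10 cystatins and related inhibitors and 1 of 20 further soluble hydrolases to 6 of 20 TFEB relatives and mTORC1 regulators and 6 of 15 sorting genes, with 3 of 25 membrane proteins and 2 of 17 V-ATPase subunits between. The bare E-box CACGTG, which contains every such match, stood in 14 of the 29 (48.3%), the other 2 being Ctsf and Ctsl, and in 12.1% of measured genes. Lamp1 held 4 copies, with first bases 61, 45, 28 and 15 bases before the start. Ctsa held 2, at 12 bases before the start and at base 6, counting the start as base 1, in the second of its 2 windows only. Ctsd, Mcoln1 and Gla also held 2 each. Lgmn held 1, 49 bases before the start, in the window printed above, and its other window held no E-box. Genes with the motif did not share a direction between the libraries. Of the 12, 6 had log2 ratios above 0 and the median was 0.04, with a range from −0.31 for Lgmn to 0.65 for Ctsa. Of the 17 whose windows held no TCACGTG, 7 lay above 0 and the median was −0.03, from −0.50 to 0.49. A match in these letters is a description of the window and not a measured binding site.

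**Figure D1:**
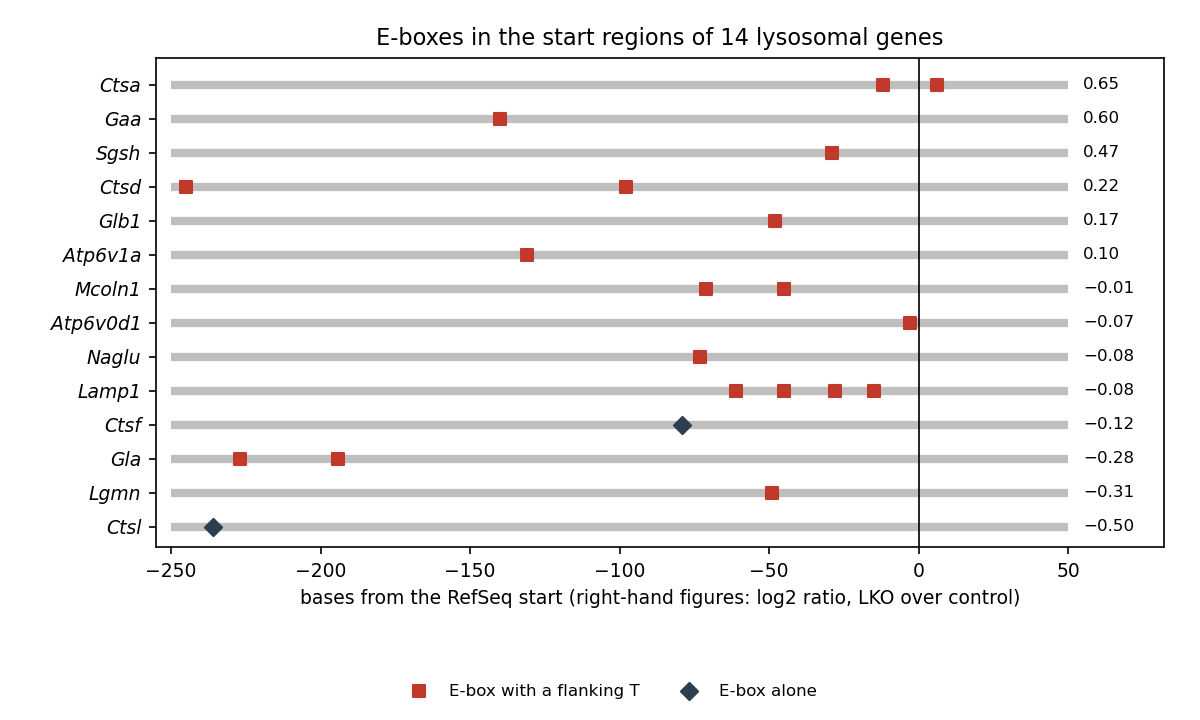
Positions of E-boxes (CACGTG) in the windows of the 14 lysosomal genes that held one, in bases from the RefSeq start, with red squares for copies flanked by T and dark diamonds for copies that were not; genes run down by their log2 ratio, library labelled LKO over control library, printed at the right. Copies lay in windows of genes from 0.65 (Ctsa) to −0.50 (Ctsl), with 4 copies within 61 bases before the start of Lamp1.

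As a group the lysosomal genes were close to equal in the 2 libraries. Of the 34, all of which were measured, 4 (11.8%) were higher by 1.5-fold or more in the library labelled LKO with an interval above 1, against 10.5% of all measured genes. None was lower by 1.5-fold or more, against 9.76% of all measured genes. At 2-fold, 1 gene was higher (3.83% of all measured genes) and 0 were lower (2.62%). The 4 were Atp6v0d2, Npc1, Ctsa and Gaa, and the 1 at 2-fold was Atp6v0d2. Atp6v0d2 met the low-count filter only by its level in the library labelled LKO, and without it 3 of 33 were at least 1.5-fold higher. The median log2 ratio was −0.02, beside 0.00 for all measured genes, and 15 of 34 ratios lay above 0. At a lower line, 8 lysosomal genes were at least 25% higher (22.8% of all measured genes) and 4 were at least 20% lower (22.6% of all measured genes). Outside this band lay 35.3% of the lysosomal genes and 45.5% of all measured genes. Scaling moves the ratios of all measured genes together: with total-count scaling the median of the 34 was 0.40, 32 of 34 lay above 0 and 12 were at least 1.5-fold higher. The median of all measured genes was then 0.42, and their share at least 1.5-fold higher with that scaling is not given here. The order of the genes and the ratio of any gene to another do not depend on scaling.

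**Figure D2:**
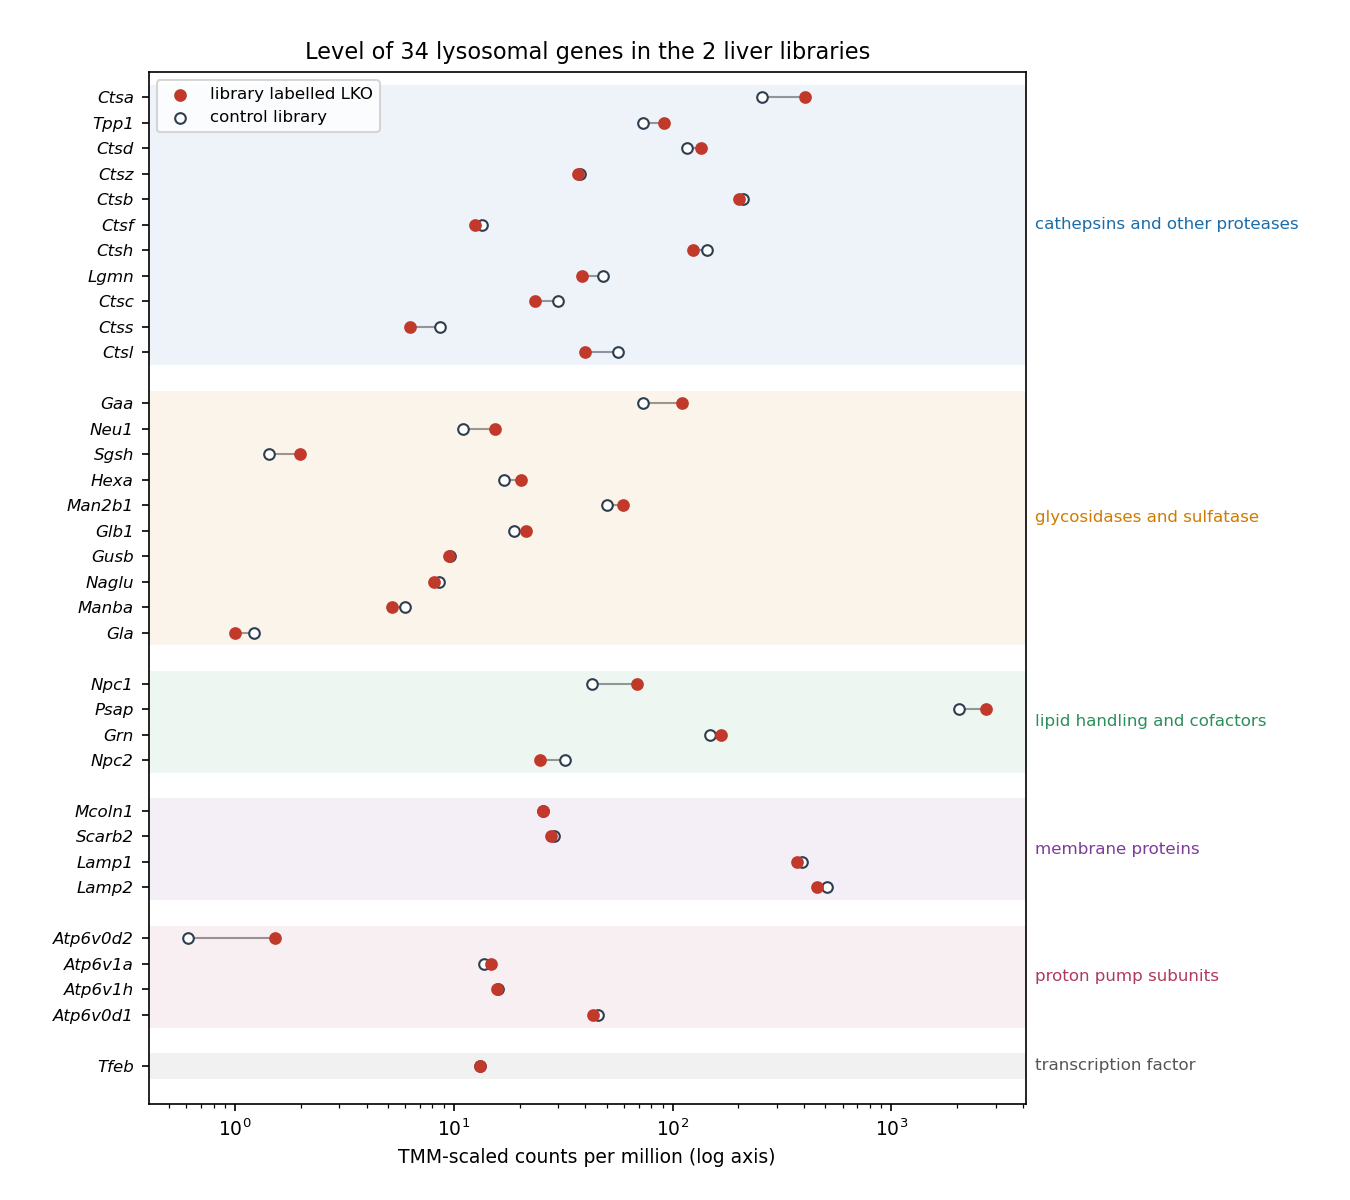
CPM after scaling (log axis) of the 34 lysosomal genes in the library labelled LKO (red) and the control library (open), 1 library each, grouped by role and ordered within a role by ratio. The symbols nearly coincide for Tfeb, Mcoln1, Gusb and Atp6v1h, and stand furthest apart for Atp6v0d2, at 1.52 CPM in the library labelled LKO and 0.613 CPM in the control library.

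**Figure D3:**
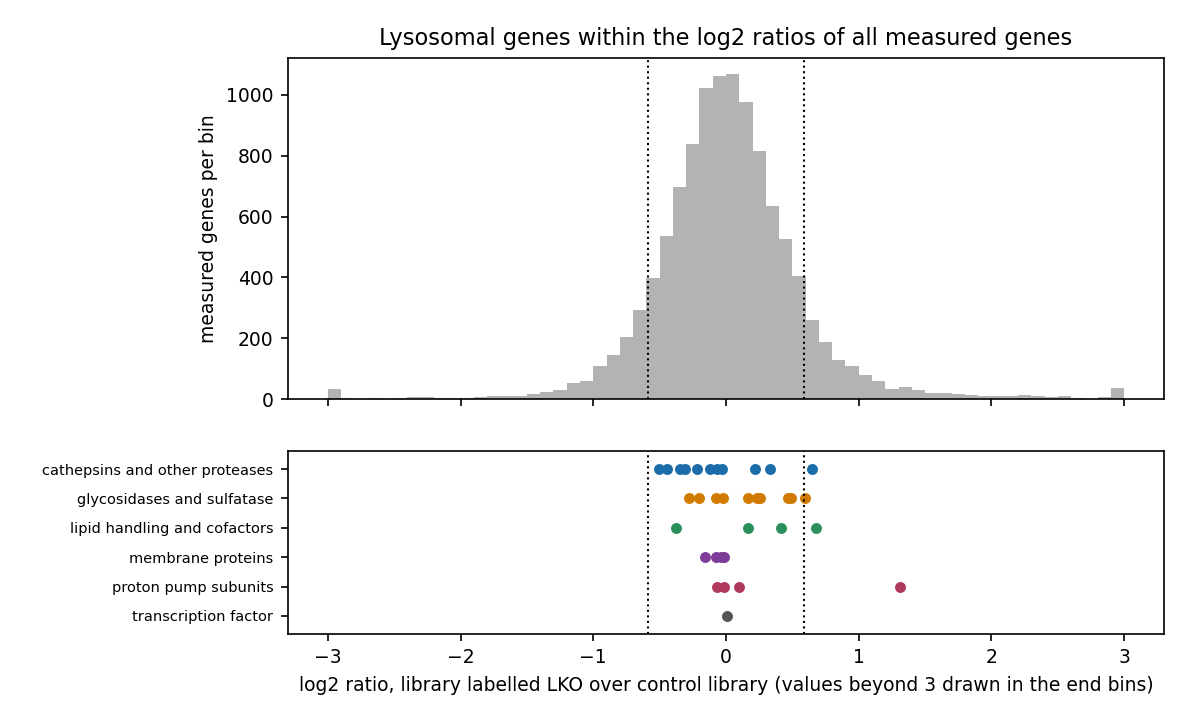
Histogram of the log2 ratio, library labelled LKO over control library, of the 11137 measured genes in bins of 0.1 (top), and the 34 lysosomal genes by role on the same axis (bottom); dotted lines mark 1.5-fold in each direction. All but 4 lysosomal genes lie between the dotted lines, where 79.7% of all measured genes lie.

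Levels spanned more than the differences between libraries did. Per kilobase of the longest annotated transcript and scaled to an equal sum in each library (TPM), Psap stood highest, at 2022 TPM in the library labelled LKO and 944 TPM in the control library. Lamp1 (330 and 216 TPM), Lamp2 (251 and 174 TPM) and Ctsa (219 and 86.8 TPM) followed in both libraries, and then Grn, Ctsd, Ctsh and Ctsb in the same order in both. Gla, Sgsh and Atp6v0d2 stood last in each library, at most 1.19 TPM. TPM is not corrected for the urinary protein genes, so it orders genes within a library and is not compared between libraries here. Psap alone held 51.1% of the counts of the 34 genes in the library labelled LKO and 45.3% in the control library. RefSeq lists 6 curated transcripts for Psap, and low counts were even more often for genes with 2 curated transcripts (67.6% in the library labelled LKO and 69.4% in the control library) than with 1 (52.2% and 56.0%), which would follow if transcripts were counted separately and added. Divided by its 6 transcripts, Psap would stand at 337 TPM in the library labelled LKO and 157 TPM in the control library, still above the other 33 treated the same way. Lamp1 would still follow, but the order after it would change. Grn (141 TPM in the library labelled LKO and 78.3 TPM in the control library) and Ctsd (126 and 67.2 TPM) would stand above Lamp2 (83.7 and 58.0 TPM) and Ctsa (110 and 43.4 TPM).

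The cathepsins went both ways. Ctsa, the serine carboxypeptidase that also shields neuraminidase and β-galactosidase in a complex, had 61493 counts in the library labelled LKO and 28498 in the control library. That was 403 CPM against 257 CPM, or 1.57-fold (interval 1.55 to 1.59) higher, above 91.3% of measured genes. Ctsa spans chromosome 2, 164832873 to 164841032 (mm10, plus strand), and 495 of its exonic bases lie opposite exons of Pltp, the phospholipid transfer protein gene. Pltp had 34693 counts in the library labelled LKO and 5361 in the control library, 4.70-fold (interval 4.57 to 4.84) higher, and whether counting used strand is not given. Less the share of Pltp counts that these bases make up of its transcript (22.2%), a correction chosen after seeing the data, Ctsa stood at 1.43-fold (interval 1.41 to 1.45), under the 1.5-fold line. Its log2 ratio was 0.54 once the trend of ratios with length and GC content was taken out, which is also under that line.

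Tpp1, a peptidase that trims tripeptides from protein ends, stood at 91.9 CPM in the library labelled LKO and 73.2 CPM in the control library, 1.26-fold (interval 1.22 to 1.29). Ctsd, the main aspartic protease of lysosomes, stood at 135 and 116 CPM in the same order, 1.16-fold (interval 1.14 to 1.19). Ctsb, a cysteine protease that is also a carboxypeptidase, was nearly level, with 201 CPM in the library labelled LKO and 211 CPM in the control library, a log2 ratio of −0.07. Ctsz, a carboxypeptidase, and Ctsf, another cysteine protease, had log2 ratios of −0.03 and −0.12.

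The other 5 proteases were lower by less than 1.5-fold, and their intervals excluded 1. Intervals of the ratios of Ctsb (0.940 to 0.972) and Ctsf (0.861 to 0.987) also excluded 1. Ctsl, an endopeptidase of broad use, had 6093 counts in the library labelled LKO and 6271 in the control library, or 40.0 CPM against 56.6 CPM, 1.42-fold (interval 1.37 to 1.47) lower. Ctss, a cysteine protease of antigen-presenting cells, had 964 counts in the library labelled LKO and 956 in the control library, or 6.32 CPM against 8.62 CPM, 1.36-fold (interval 1.246 to 1.49) lower. With the length and GC trend removed, the log2 ratio of Ctsl was −0.50 and that of Ctss −0.19, outside the interval of Ctss. Ctsl and Ctss were the only members whose log2 ratios stayed below 0 with total-count scaling, at −0.08 and −0.03, while those of Ctsc, Lgmn and Ctsh were 0.07 to 0.20. Ctsc, which activates granule serine proteases, was 1.27-fold lower, Lgmn, an asparaginyl endopeptidase that processes other cathepsins, 1.24-fold lower, and Ctsh, an aminopeptidase, 1.16-fold lower. Within each library, 10.1 counts of Ctsa stood to 1 of Ctsl in the library labelled LKO and 4.54 to 1 in the control library, a 2.22-fold (interval 2.14 to 2.31) difference that no scaling alters. Ctsa and Ctsl had the highest and lowest ratios of the proteases, so a gap between them was given by that choice.

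Kupffer cell markers were lower beside these proteases. Of 15 markers 14 were measured, and of these 7 were lower by 1.5-fold or more (50%, against 9.76% of all measured genes) and 0 higher (10.5% of all measured genes), around a median log2 ratio of −0.55. Timd4 was 2.34-fold and Cd5l 1.90-fold lower. Their summed level was 204 CPM in the library labelled LKO and 292 CPM in the control library, and no marker was at 0. Slc40a1, the iron exporter gene and the one with the most counts, was 1.24-fold lower. In whole liver, fewer macrophages and less RNA per macrophage cannot be told apart, and the part of these cells in the ratios of Ctss, Ctsc, Ctsl and Lgmn was not tested. Hepatocyte markers also had a median log2 ratio below 0, at −0.34, with 4 of 13 at least 1.5-fold lower (30.8%) and 0 higher. With total-count scaling their median was 0.08 and that of the Kupffer cell markers −0.13, both below the 0.42 of all measured genes.

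Markers of stellate cells and fibroblasts lay mostly on the other side. Of 12, all measured and none at 0, 5 were higher by 1.5-fold or more (41.7%, against 10.5% of all measured genes) and 1 was lower (8.33%, against 9.76%), around a median log2 ratio of 0.48. Their summed level was 575 CPM in the library labelled LKO and 434 CPM in the control library. Col1a1, a chain of type I collagen, had 1418 counts in the library labelled LKO and 159 in the control library, 6.48-fold (interval 5.50 to 7.69) higher. Col3a1, the chain of type III collagen, had 1438 and 338 counts in the same order, 3.09-fold (interval 2.75 to 3.49) higher. Ecm1, which had the most counts, was 1.43-fold higher. Of 11 sinusoidal endothelial markers none was called in either direction, around a median of 0.12, and of the cholangiocyte, lymphocyte and neutrophil lists only 3, 1 and 1 genes were measured, none of them called. The part of these cells in the ratios of the lysosomal genes was not tested.

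**Figure D4:**
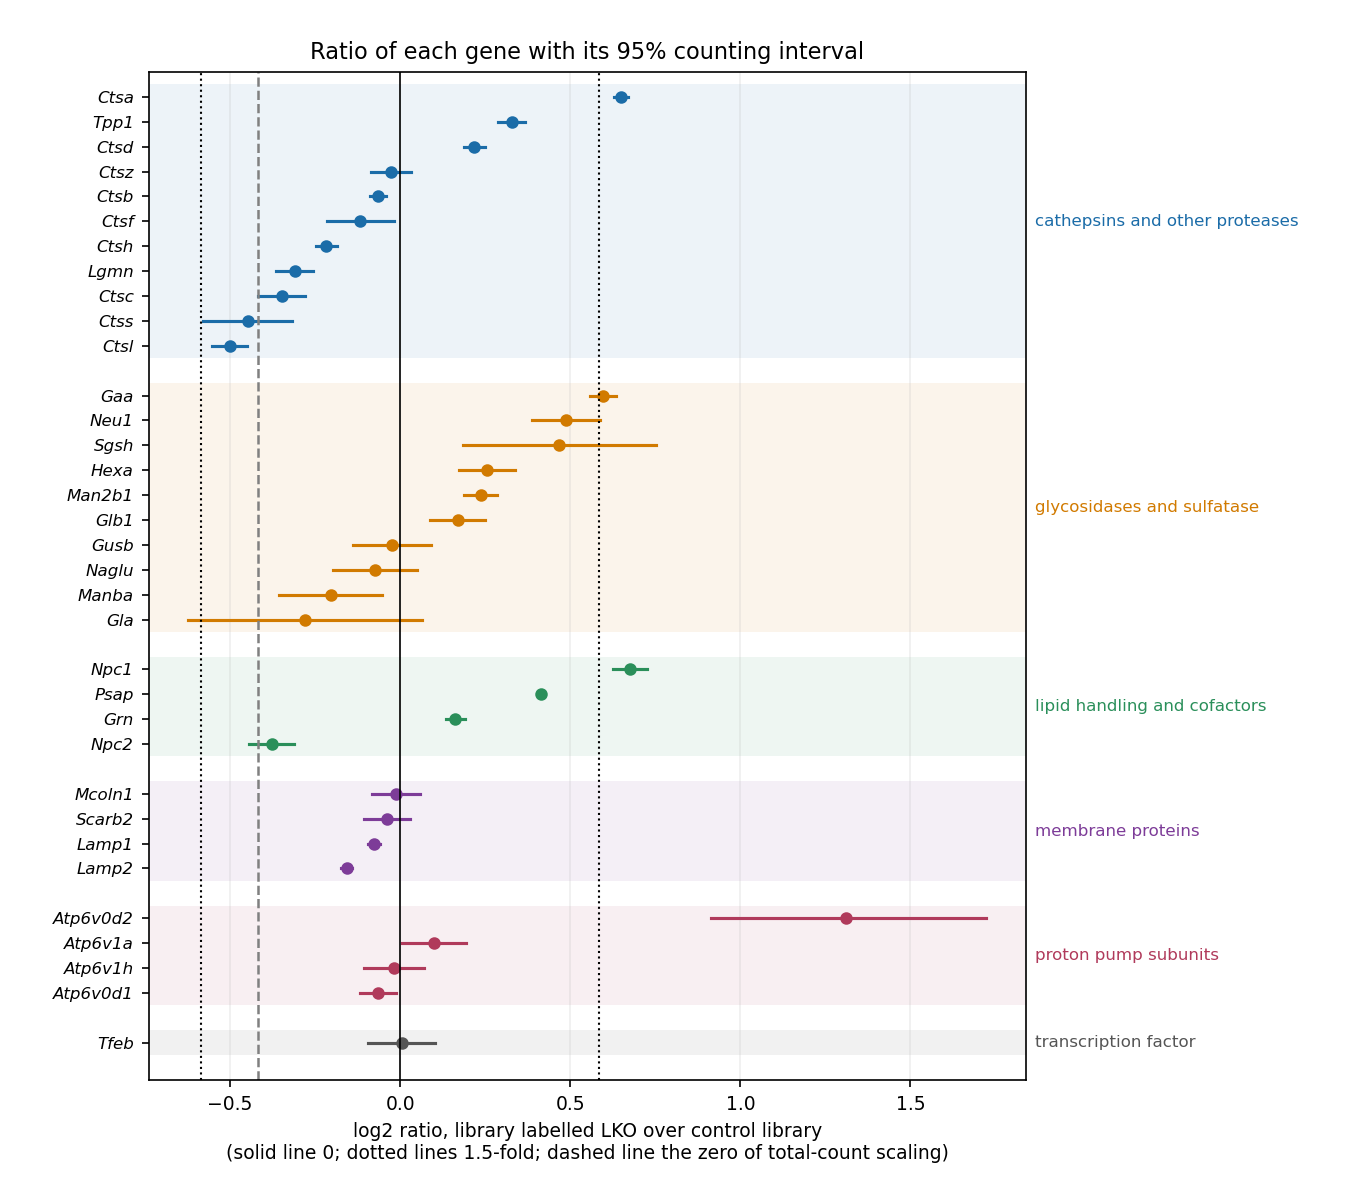
Log2 ratio, library labelled LKO over control library, of each of the 34 genes with its 95% counting interval, grouped by role; the solid line is 0, dotted lines are 1.5-fold and the dashed line is where 0 would lie with total-count scaling. Only Atp6v0d2, Npc1, Ctsa and Gaa lie beyond the right dotted line, the 4 membrane proteins lie between −0.16 and −0.01, and Ctsl and Ctss lie left of the dashed line.

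Among the glycosidases 6 of 10 had ratios above 1, where 49.7% of all measured genes lay, and the median log2 ratio was 0.20. Gaa, the acid α-glucosidase that breaks down glycogen in lysosomes, had 16799 counts in the library labelled LKO and 8085 in the control library. That was 110.2 CPM against 72.9 CPM, or 1.51-fold (interval 1.47 to 1.55) higher, barely past 1.5-fold, and its log2 ratio was 0.36 once the trend of ratios with length and GC content was taken out. Gaa spans chromosome 11, 119267887 to 119285454 (plus strand). Neu1, the neuraminidase that works in a complex with Ctsa and Glb1, stood at 15.5 CPM in the library labelled LKO and 11.1 CPM in the control library, 1.40-fold (interval 1.31 to 1.503) higher. Glb1, the β-galactosidase of that complex, stood at 21.3 and 19.0 CPM in the same order, 1.12-fold (interval 1.06 to 1.19). The 3 genes of the complex thus all had ratios above 1, and Neu1 per Glb1 differed by 1.247-fold (interval 1.14 to 1.36). Less its overlap with Pltp, Ctsa stood at 1.43-fold, inside the interval of Neu1, so Ctsa and Neu1 are not ordered here.

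Sgsh, a sulfatase of heparan sulfate breakdown, had only 302 counts in the library labelled LKO and 159 in the control library, 1.38-fold with a wide interval of 1.14 to 1.68. Hexa, the α chain of β-hexosaminidase, and Man2b1, an α-mannosidase, were 1.19-fold and 1.18-fold higher. Gusb, the β-glucuronidase, and Naglu, which acts in heparan sulfate breakdown, had log2 ratios of −0.02 and −0.08 with intervals that included 1. Manba, a β-mannosidase, was 1.15-fold (interval 1.04 to 1.28) lower. Gla, the α-galactosidase, had 153 counts in the library labelled LKO and 135 in the control library, a ratio of 0.824 with an interval from 0.649 to 1.05, so a difference was not detectable at this depth. Gaa per Gla differed by 1.83-fold (interval 1.44 to 2.33). Gaa and Gla had the highest and lowest ratios of this role, so a gap between them was given by that choice.

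The genes of cholesterol release lay on opposite sides of an equal ratio. Npc1, the membrane protein that passes cholesterol out of the lysosome, had 10460 counts in the library labelled LKO and 4762 in the control library. That was 68.6 CPM against 43.0 CPM, or 1.60-fold (interval 1.54 to 1.65) higher, above 91.8% of measured genes. Npc2, the soluble protein that hands cholesterol to NPC1, had 3784 counts in the library labelled LKO and 3574 in the control library, or 24.8 CPM against 32.2 CPM, 1.30-fold (interval 1.24 to 1.36) lower. Within a library, 2.76 counts of Npc1 stood to 1 of Npc2 in the library labelled LKO and 1.33 to 1 in the control library. This 2.07-fold (interval 1.96 to 2.20) difference does not depend on scaling, and with a length and GC trend removed the log2 ratios were 0.66 and −0.42. With total-count scaling they were 1.09 and 0.04. Exons of Npc1 share 511 bases with those of Rmc1 on the other strand, which had 2754 counts in the library labelled LKO and 2137 in the control library under an older symbol, a log2 ratio of −0.09.

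Psap, whose product is cut into the saposins that help lipid hydrolases reach their substrates, stood at 2710.2 CPM in the library labelled LKO and 2036 CPM in the control library, 1.33-fold (interval 1.32 to 1.34) higher. Grn, which encodes progranulin, a partner of prosaposin in sorting, stood at 167 and 149 CPM in the same order, 1.12-fold (interval 1.10 to 1.14). The 34 genes together summed to 5305 CPM in the library labelled LKO and 4496 CPM in the control library. Without Psap the sums were 2595 and 2459.7 CPM in the same order, so most of the 1.18-fold difference in the sum came with Psap. If transcripts were counted separately and added, Psap, with 6 curated transcripts, would weigh more in these sums than its molecules do.

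The 4 membrane proteins gave the narrowest spread of the 5 roles with several genes. Lamp2, which is also needed for chaperone-mediated autophagy, stood at 456 CPM in the library labelled LKO and 509 CPM in the control library, 1.12-fold (interval 1.10 to 1.13) lower. Lamp1, the abundant glycoprotein of the lysosomal coat, stood at 371 and 391 CPM in the same order, 1.05-fold (interval 1.04 to 1.07) lower. Scarb2, the receptor that carries glucocerebrosidase to lysosomes, had a log2 ratio of −0.04, and Mcoln1, the calcium channel of the lysosomal membrane, had one of −0.01. Both of their intervals included 1. With total-count scaling all 4 log2 ratios were positive, from 0.26 to 0.41. Tfeb stood at 13.2 CPM in both libraries, with 2018 counts in the library labelled LKO and 1463 in the control library, and its interval ran from 0.937-fold to 1.07-fold. With the length and GC trend removed its log2 ratio was −0.22, outside that interval, and with total-count scaling it was 0.42.

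Of the 4 V-ATPase subunits among the 34 genes, Atp6v0d2, an isoform of the d subunit known from osteoclasts and from macrophages, stood apart. It had 232 counts in the library labelled LKO and 68 in the control library, or 1.52 CPM against 0.613 CPM, 2.48-fold (interval 1.89 to 3.30) higher. It was the only member under 1 CPM in the control library and met the low-count filter only by its level in the library labelled LKO. Atp6v0d2 spans chromosome 4, 19876841 to 19922605 (minus strand). Atp6v0d1, the d subunit found in most tissues, stood at 43.4 CPM in the library labelled LKO and 45.4 CPM in the control library, a log2 ratio of −0.07. Atp6v1a and Atp6v1h, subunits of the cytosolic pump domain, had log2 ratios of 0.10 and −0.02. Counts of Atp6v0d2 per count of Atp6v0d1 were 0.0350 in the library labelled LKO and 0.0135 in the control library.

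Markers of recruited and lipid-associated macrophages gave a mixed picture beside Atp6v0d2. Of 13 such genes 7 were measured, 2 of them higher by 1.5-fold or more (28.6%, against 10.5% of all measured genes) and 0 lower (9.76%). Their median log2 ratio was −0.12, and their summed level was 81.3 CPM in the library labelled LKO and 85.5 CPM in the control library. None was at 0. Mmp12, a macrophage elastase gene, had 311 counts in the library labelled LKO and 35 in the control library, and Gpnmb, a glycoprotein gene of lipid-laden macrophages, had 327 and 60 counts in the same order, so both also met the filter only by their level in the library labelled LKO. Spp1, which had the most counts of the list, was 1.28-fold lower. The part of these cells in the ratio of Atp6v0d2 was not tested.

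Other genes of the lysosome were read from 6 lists chosen by role, of which 117 of 138 genes were measured. In all, 7 (5.98%) were higher by 1.5-fold or more, against 10.5% of all measured genes, and 11 (9.40%) were lower, against 9.76%, around a median log2 ratio of 0.01. Neither share was above that of all measured genes, so the genes named next show only which members of the lists these were. Of 30 further soluble hydrolases, 1 was higher and 1 lower with a median of 0.01. These were Arsa, the arylsulfatase of sulfatide breakdown, at 25.4 CPM in the library labelled LKO and 15.4 CPM in the control library (1.65-fold, interval 1.56 to 1.75), and Gm2a, the activator of ganglioside breakdown, at 47.0 and 75.3 CPM in the same order (1.60-fold lower, interval 1.55 to 1.65). With the length and GC trend removed, the log2 ratio of Arsa was 0.56, under the 1.5-fold line, and that of Gm2a was −0.69. Acp5, an acid phosphatase gene and the one with the most counts, was level at 249 CPM in the library labelled LKO and 247 CPM in the control library. Of 27 further membrane proteins, 1 was higher (Abcd4, a transporter gene of cobalamin handling, 1.81-fold) and 2 were lower (Slc11a1, a macrophage metal transporter gene, 1.68-fold, and Ostm1, a partner of a lysosomal chloride channel, 1.53-fold). Laptm4a, which had the most counts, had a log2 ratio of −0.25.

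Of 14 further V-ATPase subunits, 1 was higher (7.14%, against 10.5% of all measured genes) and 2 were lower (14.3%, against 9.76%). Atp6v0a1 was 1.59-fold (interval 1.56 to 1.63) higher, and Atp6v1f and Atp6v1g1 were 1.77-fold and 1.56-fold lower. With the length and GC trend removed, these log2 ratios were 0.68, −0.53 and −0.36, so Atp6v1f and Atp6v1g1 came under the 1.5-fold line. Atp6v0c, the proteolipid of the membrane ring, was level at 138 CPM in the library labelled LKO and 139 CPM in the control library. Among 18 genes for mannose 6-phosphate tagging and sorting, 0 were higher (10.5% of all measured genes) and 1 was lower (5.56%, against 9.76%). The lower gene was Sort1, the sortilin gene, at 1.82-fold. Of the 18 ratios, 14 lay above 1, where 49.7% of all measured genes lay. The median log2 ratio was 0.13, and 0.08 with the length and GC trend removed. Ap1b1, an adaptor subunit with the most counts among them, had a log2 ratio of 0.20. TCACGTG stood in the windows of 6 of 15 of these sorting genes.

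Among the 20 measured TFEB relatives and genes of lysosomal mTORC1 control, 4 were higher (20%, against 10.5% of all measured genes) and 3 lower (15.0%, against 9.76%), with a median of 0.14. One of the 3 lower, Tfec, met the low-count filter only by its level in the control library, with 141 counts in the library labelled LKO and 156 in the control library. Fnip2, a partner of folliculin, was 2.23-fold (interval 2.05 to 2.44) higher, at 13.9 CPM in the library labelled LKO and 6.20 CPM in the control library. Mtor was 1.73-fold higher, whereas Lamtor2 and Lamtor5, scaffold subunits that hold mTORC1 regulators on the lysosome, were 1.66-fold and 1.60-fold lower. With the length and GC trend removed, these log2 ratios were 0.576, −0.47 and −0.35, each under the 1.5-fold line. Tsc2, which had the most counts of the list, had a log2 ratio of 0.33. Of 8 measured cystatins and related inhibitors, 0 were higher and 2 lower, Kng2, a kininogen gene, at 3.20-fold and Ahsg, the fetuin A gene, at 1.51-fold, both made by hepatocytes and secreted. With the length and GC trend removed, the log2 ratio of Ahsg was −0.48, under the 1.5-fold line, and that of Kng2 was −1.57. The median of the 8 was −0.32, and 0.10 with total-count scaling, where that of all measured genes was 0.42.

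**Figure D5:**
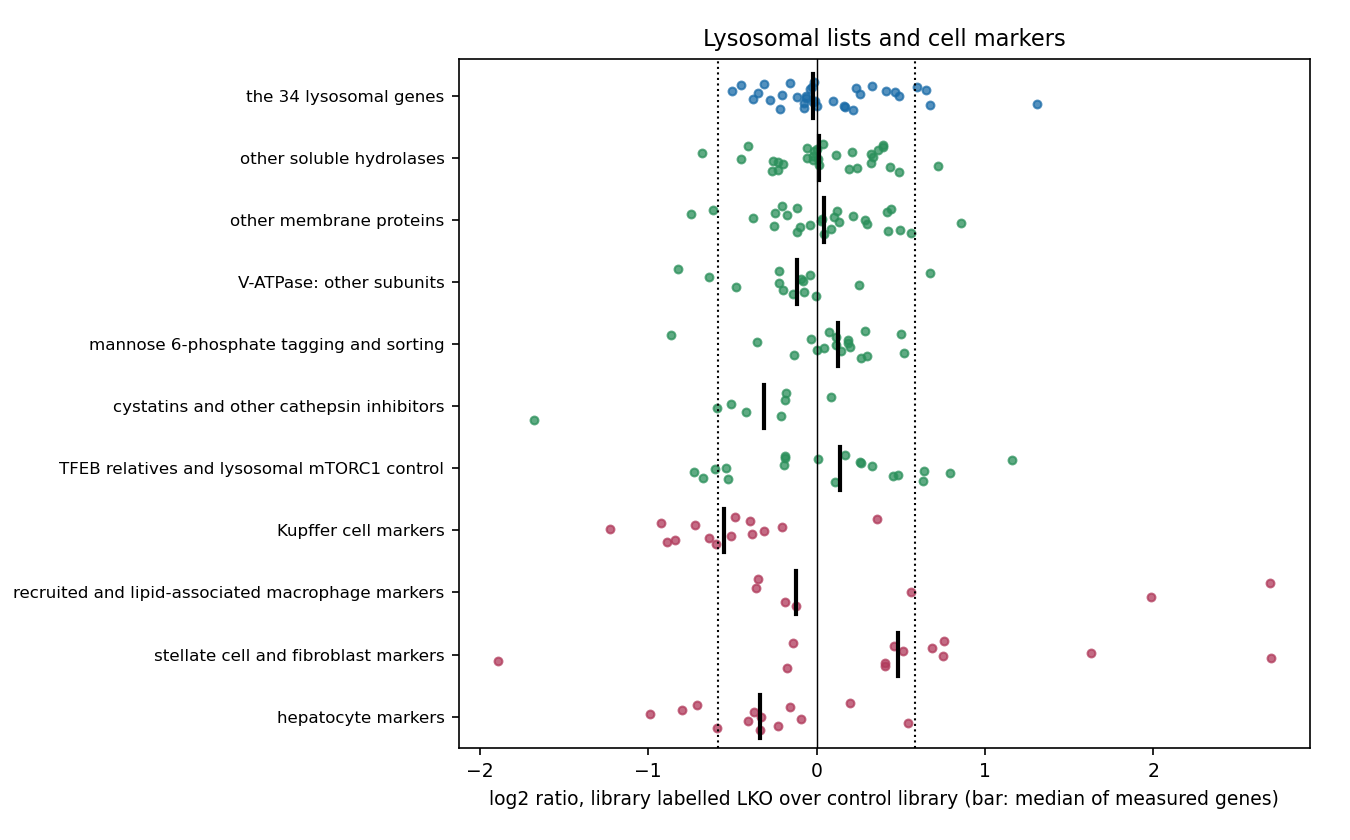
Log2 ratio, library labelled LKO over control library, of each measured gene in the 34 lysosomal genes (blue), 6 further lysosomal lists (green) and 4 lists of cell markers (red), with the median of each list as a bar and dotted lines at 1.5-fold. The medians were −0.02 for the 34 genes, −0.55 for Kupffer cell markers, 0.48 for stellate cell and fibroblast markers and −0.34 for hepatocyte markers, and 0.40, −0.13, 0.90 and 0.08 with total-count scaling. With that scaling the median of all measured genes was 0.42.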

How the data were processed

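The deposited values are raw counts per gene symbol, made by the authors and not normalized, with a table for each library. The submitters' processing notes name TopHat, edgeR and mm10 without roles, and per the labels' protocols a LEXOGEN mRNA-Seq kit was used on 500 ng of RNA. The sources used here do not give the counter, its annotation, its use of strand or its handling of multiply aligned reads. Of the 34 genes, 10 have exons that overlap those of another counted gene.

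The libraries were scaled by TMM in edgeR 4.0.16 (factors 1.16 in the library labelled LKO and 0.865 in the control library). Ratios carry 95% Clopper-Pearson intervals conditional on the summed count, and ratios of 2 genes carry exact conditional odds ratio intervals (scipy 1.17.1). The intervals were run on simulated Poisson counts, which hold counting error alone, as the intervals assume. That run could not test spread between animals or reads that are not independent. With counts divided by 2, as if each read had been counted 2 times, the calls were still 4 higher and 0 lower. A group of 1 library allows no test, so no p-value is given. A gene was called at 1.5-fold with an interval that excluded 1.

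Coordinates, lengths and GC content came from GENCODE M21 (GRCm38), which held 24053 of 24421 symbols. Tf and Trbc2 were not analysed here. The values of 1 stellate cell marker are not reported here. All 34 genes were named, and of each other list the 2 highest and 2 lowest called genes at most and the one with the most counts. Pltp and Rmc1 were named after seeing the data. The genes and lists were chosen with earlier results of these data known. Alternatives were 5 other scalings, added counts, filters, folds and intervals, and removal of a length and GC trend by lowess (fraction 0.3).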

Additional observations from a re-analysis of the deposited data

How the results depend on the processing

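No paired analysis was possible because each group had 1 library, and none could be left out. The count of lysosomal genes at least 1.5-fold higher was 4, and 0 were lower. The count higher was 12 with total-count scaling, 7 with totals without Mup genes, 8 at 25% higher or more, 1 at 2-fold and 2 after removal of the length and GC trend, where Ctsa (0.54) and Gaa (0.36) dropped below 1.5-fold (the cause was not tested). The count lower was 4 at 20% lower or more and 0 under every other alternative run. The count higher was 3 with upper-quartile scaling, without Atp6v0d2 or with Ctsa less its overlap with Pltp, and 6 with totals without the 20 most abundant genes. The median log2 ratio of −0.02 was 0.40 with total-count scaling, 0.16 without Mup genes in the totals and 0.10 without the 20 most abundant genes. Each scaling shifts all measured genes by the same amount, and their median was 0.42 with total-count scaling. The shares of all measured genes past 1.5-fold under the other scalings are not given here. No alternative scaling shifted log2 ratios by more than 0.42, so none could turn the direction of a called gene. Depth limits Gla, Sgsh and Atp6v0d2 most. Of the 34 genes, 30 had intervals that reached less than 10% either side of the ratio.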

Other observations

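Of the further soluble hydrolases, 3 cathepsins fell under the low-count filter. Ctse, an aspartic protease gene, had 171 counts in the library labelled LKO and 8 in the control library. Ctsk, a collagen-degrading protease gene of osteoclasts and fibroblasts, had 43 and 7 counts in the same order. Of the 12 stellate cell and fibroblast markers, 5 were at least 1.5-fold higher (41.7%, against 10.5% of all measured genes) and 1 was lower (8.33%, against 9.76%). Ctsw, a protease gene of cytotoxic lymphocytes, had 5 counts in the library labelled LKO and 20 in the control library. These 3 were singled out after their values were seen, and the part of other cells in their counts was not tested. Across the 34 genes the log2 ratio had a Pearson r of 0.15 with log2 transcript length and 0.14 with GC content, and across 11055 measured genes 0.17 and 0.10. Genes share the same 2 libraries and are not independent replicates.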
